A study of Mus musculus with 24 samples.

Results

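The comparison described here sets mouse small intestinal organoids kept in the vehicle DMSO to the 24 h time point against organoids kept in DMSO to the 16 h time point. Its 6 RNA-seq libraries, 3 at each time, were chosen from the 24 libraries of the series by the agent and time point in their labels. The series asks what the Mediator kinases CDK8 and CDK19 do in the intestinal epithelium: 12 libraries come from wild-type, Cdk8 knockout, Cdk19 knockout and double knockout organoids, and 12 from organoids given DMSO or Senexin B, an inhibitor of both kinases, with 16 h and 24 h time points for each agent. The DMSO and Senexin B labels name no genotype, and the study describes the organoids of this experiment as wild-type. All 6 DMSO libraries share the tissue, the agent and the library preparation, so the time point is the only labelled difference. The hours in DMSO, the age of the culture and the hour of the day at collection move together between the groups and cannot be told apart. The extract protocol printed with every sample also mentions a course of 4-hydroxytamoxifen, and the sources do not say whether the DMSO organoids had it. The labels call the replicates biological triplicates but do not say what separates them, so the p-values measure the spread between these libraries, which may be in part technical.

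Intestinal organoids are epithelial cysts with buds, in which Lgr5-positive stem cells and Paneth cells sit in crypt-like domains and enterocytes, goblet, enteroendocrine and tuft cells in the villus-like parts. They grow in a gel under a medium that supplies epidermal growth factor, Noggin and R-spondin, and the cells draw glucose, amino acids and lipids from that medium between its changes. Cells meet a shortage or surplus of these by known transcriptional programmes: SREBP factors for sterols and fatty acids, ATF4 for amino acids, HIF1 for oxygen, ATF6 and XBP1 for protein folding, and NRF2 for oxidants.

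Reads were 36042777, 36108217 and 36122345 at 16 h and 36255610, 36138466 and 36179720 at 24 h, slightly more in every 24 h library. They gave 27534654 to 28405118 counts on genes per library, which overlapped between the times (exact permutation test, two-sided, p = 0.9; the smallest p that 3 against 3 libraries allow is 0.1). The shares of unmapped, multimapping and unassigned reads, of mitochondrially encoded counts and of the 20 most abundant genes gave exact p from 0.3 to 0.7. The share of reads that fell on overlapping genes was 1.75%, 1.71% and 1.72% at 16 h and 1.63%, 1.67% and 1.68% at 24 h, lower in all 3 libraries at 24 h (exact p = 0.1). No pair of libraries differed by as little as sampling noise, so all 6 were kept as separate samples. In a principal component analysis of the 6 libraries, the first component held 48.8% of the variance, with scores of -2.53, -11.2 and -23.8 at 16 h and 21.5, 8.63 and 7.45 at 24 h. The times did not overlap on this component, while 16 h replicate 1 lay nearest to the 24 h libraries on it and apart from the other 5 on the second component (22.5, against -14.4 to 4.75; 30.0% of the variance).

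Of 15467 genes tested, 1719 (11.1%) differed between 24 h and 16 h at an edgeR adjusted p under 0.05: 699 (4.52%) rose and 1020 (6.59%) fell. Changes were small for most of them, with a median fold of 1.36 among genes that rose and 0.785 among genes that fell, and a log2 fold change beyond 1 in 77 rises and 19 falls. The lowest edgeR adjusted p of the comparison was 6.59e-04, and the median log2 fold change over all genes tested was 0.00078. This median and the shares of rises and falls above are the values beside which each gene list below is read. Called genes were more abundant, with a median DMSO mean of 745 normalised counts for rises and 1604 for falls, against 491 for genes not called. A list of abundant genes may therefore hold more calls than these shares, and the lists were not matched for abundance. In 1679 of the 1719 called genes the 3 values of 1 time lay wholly above the 3 of the other, and such a separation held for 28.7% of all genes tested. Protein-coding genes made up 642 of the rises and 983 of the falls, and long non-coding RNAs 39 and 20. The number of calls depended on single libraries: it was 434 (184 higher and 250 lower) without 16 h replicate 3, 522 (220 and 302) without 24 h replicate 1, 1095 (428 and 667) without 24 h replicate 2 and 946 (394 and 552) without 24 h replicate 3. Without 16 h replicate 1 it was 2296, of which 1101 were higher. The 6 DMSO libraries fitted alone, without the Senexin B libraries that share the estimate of the spread, gave 385 calls. In every fit that left out 1 DMSO library, all 1719 genes kept the sign of their fold change, and 371 of them (21.6%; 151 higher and 220 lower) were called in all 6 such fits.

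**Figure D1:**
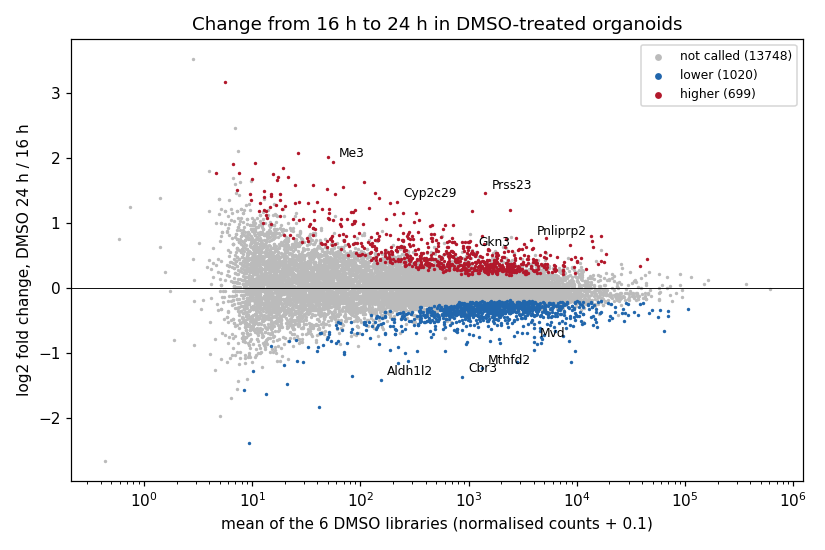
Log2 fold change from 16 h to 24 h in DMSO (vertical axis) against the mean normalised count of the 6 DMSO libraries on a log axis, with 1 point for each of 15467 genes. The 699 genes called higher are red, the 1020 called lower are blue, and most called genes lie within 1 log2 unit of 0.

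The largest rises and falls described here were taken from called genes that averaged 50 or more normalised counts, did not overlap between the times and had a regular symbol; over all calls the log2 fold change ran from -2.38 to 3.17. Normalised counts, scaled to the mean library of the experiment, were 31.5, 25.4 and 11.95 at 16 h and 95.0, 89.7 and 81.9 at 24 h for Me3, which encodes the mitochondrial NADP-dependent malic enzyme (GRCm38, GENCODE vM21, chr7:89632392-89854359). Every 24 h library lay above every 16 h library (log2 fold change 1.95 ± 0.34 (SE), edgeR adjusted p = 0.00476). Prss23, a secreted serine protease gene at chr7:89507783-89527187, held 1081, 656 and 551 at 16 h and 2195, 2162 and 1936 at 24 h. The times were again fully separated (log2 fold change 1.46 ± 0.18 (SE), edgeR adjusted p = 0.00129). Arhgap44, a GTPase-activating protein gene, had 74.2, 45.9 and 36.9 at 16 h against 159, 146 and 180.1 at 24 h. No 16 h library reached the 24 h range (log2 fold change 1.63 ± 0.22 (SE), edgeR adjusted p = 0.00163). Tm4sf1, which encodes a tetraspanin-like membrane protein, stood at 138, 62.5 and 43.8 and 208, 224 and 209, also without overlap (log2 fold change 1.39 ± 0.33 (SE), edgeR adjusted p = 0.019; log2 fold change 2.00 without 16 h replicate 1). Each gene was refitted without each DMSO library in turn, and here only Tm4sf1 lost its call, without 16 h replicate 2 (0.0522) or 3 (0.0843) or 24 h replicate 1 (0.0546), where the parentheses after a library hold the edgeR adjusted p found without it.

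Cytochrome P450 genes of the Cyp2c cluster, whose products oxidise drugs and fatty acids, supplied 3 of the 8 largest rises. Cyp2c29 (chr19:39269405-39330713) had 165, 90.8 and 118 normalised counts at 16 h and 422, 268 and 247 at 24 h. Cyp2c38 had 109, 59.5 and 46.8 and 221, 189 and 186. Cyp2c37 had 70.1, 20.5 and 14.9 and 146, 78.0 and 84.8. In each of the 3 the lowest 24 h library was above the highest 16 h library, by a wide margin for Cyp2c38 (edgeR, log2 fold change 1.47 ± 0.23 (SE), adjusted p = 0.00322) and a small one for Cyp2c37 (log2 fold change 1.55 ± 0.41 (SE), adjusted p = 0.0274). The log2 fold change of Cyp2c37 was 2.53 without 16 h replicate 1 and 1.19 without 16 h replicate 3. The fold change of Cyp2c29 was 1.33 ± 0.22 (SE; edgeR adjusted p = 0.00417). In edgeR fits Cyp2c37 lost its call without 16 h replicate 2 (0.0739) or 3 (0.111) or 24 h replicate 1 (0.121). These genes are close copies of each other, and reads that match several of them were not counted, so each level is uncertain.

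The largest falls under the same filter included enzymes of folate and redox metabolism. Aldh1l2, the mitochondrial 10-formyltetrahydrofolate dehydrogenase, had 130.1, 259 and 281 normalised counts at 16 h and 70.8, 78.0 and 103 at 24 h. All 24 h values were lower, although 16 h replicate 1 lay nearer to them than to its own group (log2 fold change -1.41 ± 0.26 (SE), edgeR adjusted p = 0.00582). Mthfd2, the mitochondrial methylenetetrahydrofolate dehydrogenase (chr6:83305691-83325908), also had 16 h replicate 1 nearest to the 24 h group, with 1157, 2196 and 2254 at 16 h and 663, 873 and 849 at 24 h (log2 fold change -1.23 ± 0.19 (SE), edgeR adjusted p = 0.00307). Cbr3, a carbonyl reductase gene, held 997, 1261 and 1481 against 488, 501 and 462. Its 24 h libraries lay close together and below every 16 h library (log2 fold change -1.37 ± 0.16 (SE), edgeR adjusted p = 9.55e-04). Ero1l, an oxidase that forms disulphide bonds in the endoplasmic reticulum and a hypoxia-induced gene, had 8497, 12306 and 15758 at 16 h and 5108, 5359 and 6214 at 24 h. The spread at 16 h was wide, but the groups did not overlap (log2 fold change -1.13 ± 0.19 (SE), edgeR adjusted p = 0.00414).

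Adm, the peptide hormone adrenomedullin, had 288, 354 and 485 normalised counts at 16 h and 182, 163 and 174 at 24 h. Chrna4, a nicotinic acetylcholine receptor subunit, had 286, 343 and 295 and 135, 124 and 158. In both genes each 24 h library was below each 16 h library: Adm with log2 fold change -1.12 ± 0.27 (SE) and edgeR adjusted p = 0.0189 and Chrna4 with log2 fold change -1.15 ± 0.28 (SE) and edgeR adjusted p = 0.0196. These calls rested on single libraries, since edgeR lost Adm without 16 h replicate 3 (0.0984) or 24 h replicate 1 (0.0585), 2 (0.0581) or 3 (0.0517), and Chrna4 without 16 h replicate 3 (0.0614) or 24 h replicate 1 (0.0713) or 2 (0.0614).

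The rises with the lowest p under this filter included, beside Prss23, a lipase and signalling scaffolds. Pnliprp2, a pancreatic lipase-related gene (chr19:58759719-58777534), had 3014, 2871 and 2574 normalised counts at 16 h and 5128, 4589 and 4446 at 24 h. The gap between the times was wider than the range within either (log2 fold change 0.74 ± 0.09 (SE), edgeR adjusted p = 9.55e-04). Gkn3, a gastrokine gene expressed at the crypt base, had 957, 792 and 829 and 1261, 1333 and 1252, with no overlap (log2 fold change 0.58 ± 0.07 (SE), edgeR adjusted p = 0.00129). Amot, which encodes angiomotin, a scaffold that binds YAP, had 2498, 3001 and 2427 and 4373, 3749 and 4142, all higher at 24 h (log2 fold change 0.63 ± 0.08 (SE), edgeR adjusted p = 0.00145). Dixdc1, a DIX-domain protein of the Wnt pathway, stood at 77.2, 72.2 and 62.8 at 16 h and 174, 157 and 172 at 24 h. The lowest 24 h library lay far above the highest at 16 h (log2 fold change 1.24 ± 0.16 (SE), edgeR adjusted p = 0.00152). Each of these 4 calls held when any single DMSO library was left out.

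The falls with the lowest p included enzymes of acetyl-CoA, sterol and phosphocreatine metabolism. Ckb, the brain-type creatine kinase, had 5534, 5545 and 6724 normalised counts at 16 h and 3027, 3435 and 3431 at 24 h. All 3 libraries at 24 h were below the lowest at 16 h (log2 fold change -0.85 ± 0.09 (SE), edgeR adjusted p = 9.55e-04). Aacs, acetoacetyl-CoA synthetase, which turns ketone bodies into sterol and fatty acid precursors, had 5190.1, 5601 and 6135 and 3239.6, 3807 and 3609, without overlap (log2 fold change -0.67 ± 0.08 (SE), edgeR adjusted p = 9.55e-04).

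**Figure D2:**
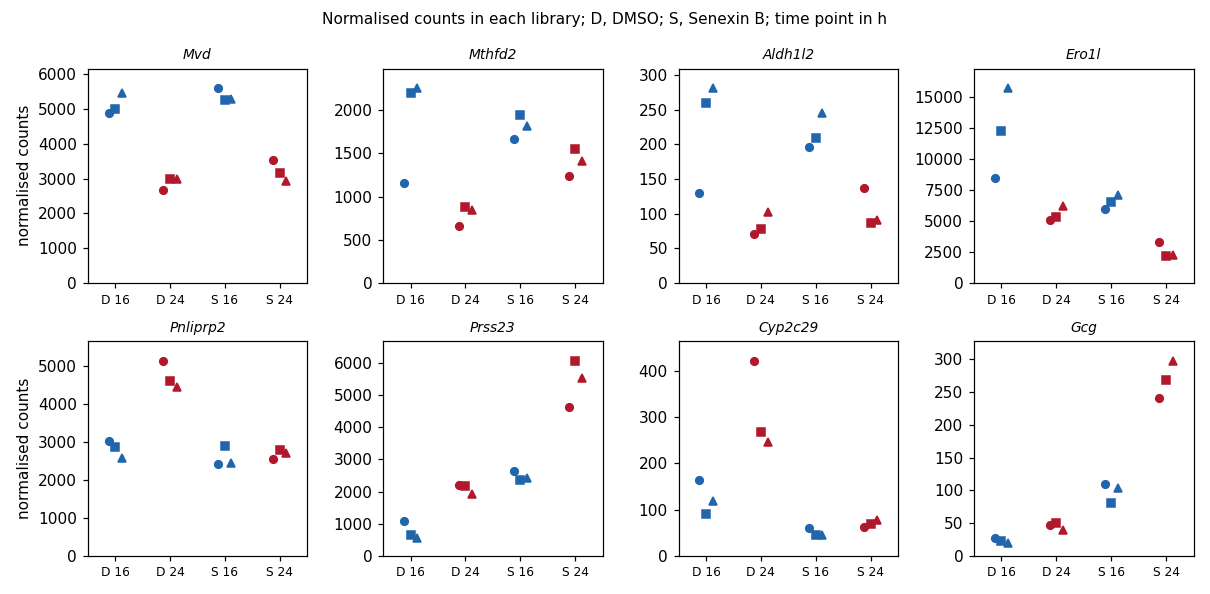
Normalised counts (vertical axes, starting at 0) of 8 genes in each of the 12 DMSO and Senexin B libraries, with circles for replicate 1, squares for replicate 2 and triangles for replicate 3, blue at 16 h and red at 24 h. In all 8 genes the 3 DMSO libraries at 24 h lie wholly on 1 side of those at 16 h, while Pnliprp2 shows no such separation under Senexin B.

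Genes of cholesterol synthesis and uptake fell together: 22 of 25 tested were called lower and 0 higher, with a median log2 fold change of -0.50 (range -0.83 to -0.053) against 0.00078 over all genes. Mvd, the mevalonate diphosphate decarboxylase (chr8:122433601-122443422), had 4903, 4996 and 5477 normalised counts at 16 h and 2669.6, 2994 and 3003 at 24 h. The times were separated by far more than the range within them, and this was the lowest adjusted p of the whole comparison (log2 fold change -0.83 ± 0.08 (SE), edgeR adjusted p = 6.59e-04). Mvk, the mevalonate kinase, had 1635, 1501 and 1589.8 and 1065, 1133 and 1150.1. Pmvk, the next kinase of the route, had 2735, 2617 and 3017 and 1822, 1923 and 1786. Both lay lower in every 24 h library (edgeR, log2 fold change -0.50 ± 0.06 (SE) and adjusted p = 0.00111 for Mvk; log2 fold change -0.60 ± 0.08 (SE) and adjusted p = 0.00153 for Pmvk). Acat2, the cytosolic acetoacetyl-CoA thiolase at the start of the route, had 5602, 5827 and 6701 at 16 h and 3124, 3546 and 3877 at 24 h, and the groups did not overlap (log2 fold change -0.78 ± 0.09 (SE), edgeR adjusted p = 0.00112). Dhcr7, the last reductase before cholesterol (chr7:143823145-143848410), had 5277, 5344 and 6004 and 3332, 3693 and 3795, also fully separated (log2 fold change -0.62 ± 0.07 (SE), edgeR adjusted p = 9.55e-04). Summed over the list, normalised counts were 197712, 213772 and 225679 at 16 h and 148005, 154750 and 162146 at 24 h, all lower at 24 h. The number of falls was 14 without 16 h replicate 3, and 14 of the 22 calls held without any single library. Fewer cells of a type that expresses a gene and less of its RNA in each cell cannot be told apart in bulk RNA, here or in the lists that follow.

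In the list of fatty acid synthesis 7 of 17 genes tested fell and 0 rose (median -0.22). Scd1, the stearoyl-CoA desaturase that makes monounsaturated fatty acids, had 11341, 13667 and 12851 normalised counts at 16 h and 6184, 6206 and 6924 at 24 h. Its neighbour and paralogue Scd2 had 76531, 78629 and 80977 and 47699.9, 47875 and 53198. Each was lower in every 24 h library (log2 fold change -0.97 ± 0.15 (SE), edgeR adjusted p = 0.0025 for Scd1, and log2 fold change -0.67 ± 0.10 (SE), edgeR adjusted p = 0.00222 for Scd2). Acss2, the cytosolic acetyl-CoA synthetase, had 5539.7, 6364 and 6537 and 3811, 3693 and 3732, with a narrow range at 24 h and no overlap (log2 fold change -0.71 ± 0.09 (SE), edgeR adjusted p = 0.00106). Elovl5, an elongase of long fatty acids, and Fasn, the fatty acid synthase, fell less (edgeR log2 fold change -0.47 and -0.36, adjusted p = 0.00788 and 0.0141), and Fasn lost its call without 24 h replicate 1 (0.0685). Both were lost when edgeR had only the 6 DMSO libraries (adjusted p = 0.057 and 0.0736). The list had 1 rise without 16 h replicate 1 and 1 without 24 h replicate 3.

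Promoters of these genes were searched for 3 short motifs, since members of a list moved together: CACGTG (E-box), TTTGAA (the CHR element of cell-cycle genes) and GATTGG, which on the other strand reads CCAATC (a 6-base form of the CCAAT box, meant by that name here), each on both strands in the 250 bases upstream of a RefSeq start (GRCm38.p6). At least 1 promoter was found for 10776 of the tested genes. The CCAAT box was in 16.6% of all 27025 genes with a promoter and in 21.9% of those tested. It was present for 12 of 17 matched genes of cholesterol synthesis (70.6%), 11 of 16 of the unfolded protein response (68.8%) and 14 of 23 of the integrated stress response and amino acid synthesis (60.9%). In the list of DNA replication the share was 47.2%, and in those of glycolysis and hypoxia and of the respiratory chain 14.3% and 17.7%. Among all genes called lower the share was 24.9% and among those called higher 21.9%. The E-box was in 6.86% and the CHR element in 18.3% of all genes with a promoter and in 9.73% and 13.1% of those tested, against 23.5% and 5.88% in cholesterol synthesis. Over the 12 lists searched the E-box share ran from 0% (NRF2 targets and xenobiotic metabolism) to 23.5% (also p53 targets). The CHR share ran from 0% in the unfolded protein response to 40.9% in xenobiotic metabolism. The shares of the lists count all tested members with a promoter, whether called or not. Among the named falls of these lists, Mvd, Mvk, Dhcr7, Mthfd2, Stc2 and Sdf2l1 had a CCAAT box. No such match was found for Pmvk, Acat2, Slc6a9, Eif4ebp1, Cth, Hyou1, Manf, Calr or Pdia6, some of which may have had no promoter to search. Whether members with the motif fell more than the others was not tested. A match describes the sequence and is no evidence of binding. The upstream bases of 3 named genes that hold the CCAAT box are printed 5′ to 3′ on the strand of the gene. There is 1 from each of the 3 lists with the highest share of the 12 searched. The 6-base form is in capitals in either orientation.
Mvd (chr8:122443423-122443672, minus strand): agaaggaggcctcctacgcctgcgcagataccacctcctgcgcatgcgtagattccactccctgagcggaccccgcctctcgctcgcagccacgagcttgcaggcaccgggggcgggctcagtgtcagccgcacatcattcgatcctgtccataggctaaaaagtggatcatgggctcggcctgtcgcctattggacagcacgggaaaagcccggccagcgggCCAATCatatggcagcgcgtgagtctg
Stc2 (chr11:31370062-31370311, minus strand): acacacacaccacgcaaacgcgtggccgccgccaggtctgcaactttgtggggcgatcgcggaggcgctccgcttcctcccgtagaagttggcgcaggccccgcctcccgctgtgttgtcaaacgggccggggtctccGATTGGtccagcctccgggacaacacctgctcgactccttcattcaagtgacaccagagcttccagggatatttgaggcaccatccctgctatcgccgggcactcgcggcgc
Sdf2l1 (chr16:17132384-17132633, minus strand): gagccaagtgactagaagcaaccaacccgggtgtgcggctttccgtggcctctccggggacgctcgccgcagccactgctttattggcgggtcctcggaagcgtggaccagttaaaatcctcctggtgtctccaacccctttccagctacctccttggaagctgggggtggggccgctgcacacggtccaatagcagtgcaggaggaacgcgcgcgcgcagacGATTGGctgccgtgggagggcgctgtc
Each holds 1 copy of this form, and Mvd and Sdf2l1 also hold CCAAT with other bases beside it.

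Glycolytic and hypoxia-induced genes made up the next group, with 19 of 30 tested called lower, 0 called higher and a median log2 fold change of -0.40. Pfkp, a phosphofructokinase gene, had 10383, 10990.5 and 11319.8 normalised counts at 16 h and 8297, 8049 and 7678 at 24 h. Ldha, which reduces pyruvate to lactate, had 65569, 59238 and 67976 and 45523, 48875 and 46977. Pkm, the pyruvate kinase, had 77852, 74414 and 79604 and 59441, 61204 and 61000.2. In all 3 enzymes the highest 24 h library was below the lowest at 16 h (edgeR log2 fold change -0.44 ± 0.08, -0.45 ± 0.07 and -0.35 ± 0.07 SE; adjusted p = 0.0046, 0.0025 and 0.0065). Ddit4, a hypoxia- and stress-induced inhibitor of mTORC1, had 6104, 6471 and 7535 and 4813, 4126 and 4584, without overlap (log2 fold change -0.57 ± 0.09 (SE), edgeR adjusted p = 0.00267). Summed normalised counts of the list were 666330, 597665 and 694086 at 16 h and 508892, 492581 and 491613 at 24 h, so all 24 h libraries were lower. The falls numbered 7 without 16 h replicate 3, where 7 calls held without any single library, and there was 1 rise without 16 h replicate 1.

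Targets of the integrated stress response and enzymes of amino acid synthesis had the lowest median log2 fold change of the 41 lists, -0.55, with 18 of 27 called lower and 0 higher. Slc6a9, a glycine transporter gene, had 1020.3, 1231 and 1441 normalised counts at 16 h and 652, 718 and 714 at 24 h. The groups were apart with the highest 16 h value in replicate 3 (log2 fold change -0.83 ± 0.11 (SE), edgeR adjusted p = 0.00145). Stc2, the secreted glycoprotein stanniocalcin 2, had 2076, 2600.5 and 2851 and 1323, 1381 and 1486, and its 24 h libraries lay within a narrow band below all 16 h libraries (log2 fold change -0.85 ± 0.11 (SE), edgeR adjusted p = 0.00145). Eif4ebp1, an inhibitor of cap-dependent translation, had 2002, 2209 and 2359 and 1471, 1593 and 1386. Cth, the cystathionine lyase that makes cysteine, had 2704, 3341 and 3183 and 2103, 2248 and 2116. Both were lower in every 24 h library (edgeR log2 fold change -0.56 ± 0.08 and -0.51 ± 0.08 SE; adjusted p = 0.00163 and 0.0025). Mthfd2, given above, belongs to the same list. Of the 18 calls 12 held without any single library.

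Genes of the unfolded protein response gave 8 falls and 0 rises among 18 tested (median log2 fold change -0.27). Sdf2l1, an endoplasmic reticulum protein induced by unfolded proteins (chr16:17130138-17132383), had 684, 831 and 867 normalised counts at 16 h and 362, 446 and 407 at 24 h. The lowest 16 h library was well above the highest 24 h library (log2 fold change -0.97 ± 0.11 (SE), edgeR adjusted p = 9.55e-04). Manf, a secreted protein of the same organelle, had 3407, 3849.9 and 4329 and 2112, 2424 and 2606, all lower at 24 h (log2 fold change -0.70 ± 0.09 (SE), edgeR adjusted p = 0.00145). The chaperones Hyou1 and Calr fell by smaller amounts without overlap (log2 fold change -0.51 ± 0.07 (SE), edgeR adjusted p = 0.00145; log2 fold change -0.37 ± 0.07 (SE), edgeR adjusted p = 0.00496). Pdia6, a disulphide isomerase, fell too (edgeR log2 fold change -0.42, adjusted p = 0.0151) but lost its call without 16 h replicate 3 (0.0792) or 24 h replicate 1 (0.0595). The falls of the list numbered 13 without 16 h replicate 1, 4 without 16 h replicate 3 and 4 without 24 h replicate 1. In the list of heat shock genes 2 of 11 fell (median -0.20): Hsph1, a co-chaperone of HSP70 with 1623, 1805 and 1869 at 16 h and 1328, 1352 and 1464 at 24 h, and Hspe1, the mitochondrial chaperonin 10 with 5020.4, 4551 and 5002 and 3721, 3932 and 4089. Neither overlapped between the times (edgeR log2 fold change -0.35, adjusted p = 0.0075, and log2 fold change -0.31, adjusted p = 0.00875), and without 16 h replicate 2 the list held 4 falls. With only the 6 DMSO libraries edgeR called neither (adjusted p = 0.0592 and 0.0632).

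Targets of the antioxidant factor NRF2 fell in 10 of 18 cases and rose in 0 (median log2 fold change -0.41). Nqo1, a quinone reductase gene and common readout of NRF2, had 1683, 1912 and 2458 normalised counts at 16 h and 975, 1217 and 1243 at 24 h. All 24 h libraries were lower, by the largest margin against 16 h replicate 3 (log2 fold change -0.82 ± 0.12 (SE), edgeR adjusted p = 0.0025). Gsr, the glutathione reductase, had 7584, 7613 and 9281 and 4885, 5947 and 5998, with no overlap (log2 fold change -0.54 ± 0.09 (SE), edgeR adjusted p = 0.00435). The pentose phosphate enzymes Pgd and Taldo1 were lower in every 24 h library as well (edgeR log2 fold change -0.51 ± 0.08 and -0.40 ± 0.08 SE; adjusted p = 0.00307 and 0.00699). The number of falls was 5 without 16 h replicate 3 and 5 without 24 h replicate 1, and 1 member rose without 16 h replicate 1.

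Xenobiotic metabolism leaned the other way, with 7 of 24 genes higher and 2 lower, while the median of the list was close to 0 (0.060). Ces2a, a carboxylesterase gene, had 6779.6, 6420.1 and 6840.3 normalised counts at 16 h and 9944, 10886 and 10976 at 24 h. Every 24 h library was above every 16 h library (log2 fold change 0.67 ± 0.09 (SE), edgeR adjusted p = 0.00155). Sult1d1, a sulphotransferase, had 3866, 3352 and 3119 and 4501, 4661 and 4799.6, also apart (log2 fold change 0.43 ± 0.08 (SE), edgeR adjusted p = 0.00488). Cyp2c66 and Cyp2c65, further members of the chromosome 19 cluster, had 9229, 7443 and 7227 against 11748, 10673 and 10953 and 8775, 8286 and 7952 against 10681, 10144 and 10504, higher in all 24 h libraries. Their edgeR log2 fold changes were 0.48 ± 0.09 and 0.32 ± 0.06 (SE; adjusted p = 0.00568 and 0.00769), and reads shared with their near copies make both uncertain. There was 1 fall in each fit that left out a library other than 16 h replicate 1.

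Nuclear genes of the respiratory chain gave the highest number of falls of any list, 50 of 77 tested with 0 rises and a median log2 fold change of -0.28. Ndufa11, a complex I subunit gene, had 1511, 1325 and 1414 normalised counts at 16 h and 893, 1034 and 1010.0 at 24 h. Uqcrq of complex III had 4945, 4435 and 4935 and 3220.2, 3400.4 and 3125. Atp5g1 of the ATP synthase had 6068, 5724 and 6055 and 4494, 4768 and 4564. In each, every 24 h library was lower (edgeR log2 fold change -0.53 ± 0.08, -0.55 ± 0.08 and -0.37 ± 0.06 SE; adjusted p = 0.0021, 0.0024 and 0.00348). The complex I genes Ndufb6 and Ndufv2 fell alike (edgeR log2 fold change -0.40, adjusted p = 0.0025, and log2 fold change -0.36, adjusted p = 0.00353). The falls numbered 13 without 16 h replicate 3, 11 without 24 h replicate 1 and 16 without 24 h replicate 3, and 11 held without any single library. With the trend of counts with gene length and GC removed from each library, a setting chosen after seeing the data, the falls came to 17 and the median to -0.17. Of 11 mitochondrially encoded mRNAs tested 1 fell and 0 rose (median -0.022): mt-Nd6, the only mRNA of the light strand, had 1154, 1518 and 969 at 16 h and 940.3, 734 and 793 at 24 h, without overlap (edgeR log2 fold change -0.56, adjusted p = 0.0384). By edgeR its call was lost without 16 h replicate 2 (0.128) or 24 h replicate 1 (0.0566), 2 (0.119) or 3 (0.0999), with only the 6 DMSO libraries (0.0844) and with the length and GC trend removed (0.206). In the unstranded counts its log2 fold change was -0.13 (edgeR adjusted p = 0.59), and reads from the opposite strand (9.46% to 11.4% of counts in these libraries) make its level uncertain.

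Ribosome biogenesis genes were called lower in 8 of 42 cases and higher in 0 (median log2 fold change -0.14). Nhp2, a protein of box H/ACA particles that modify ribosomal RNA, had 2162, 2068 and 2293 normalised counts at 16 h and 1329, 1738 and 1566 at 24 h. Bop1, needed for the large subunit, had 1849.6, 1878 and 2057 and 1281, 1494 and 1486, and Fbl, the methyltransferase fibrillarin, 4869, 5031 and 5063 and 3782, 4128 and 4122. None of the 3 overlapped between the times (edgeR log2 fold change -0.49 ± 0.10, -0.44 ± 0.08 and -0.31 ± 0.06 SE; adjusted p = 0.0074, 0.00526 and 0.00607), and with only the 6 DMSO libraries Fbl was not called (0.0566). The polyamine enzymes Odc1 and Srm fell as well (edgeR log2 fold change -0.38, adjusted p = 0.0112, and log2 fold change -0.60, adjusted p = 0.0146). Calls that edgeR lost were Odc1 without 16 h replicate 3 (0.0546) or 24 h replicate 1 (0.0576), and Srm without 16 h replicate 3 (0.0763) or 24 h replicate 1 (0.0636); the falls of the list were 3 without 16 h replicate 3 and 3 without 24 h replicate 1, and there was 1 rise without 16 h replicate 1. Among the 84 cytosolic ribosomal protein genes tested 3 fell and 0 rose, with a median of -0.12, and these 3 are relatives of ribosomal proteins rather than the core copies: Rpl7l1, Rps27l and Rpl22l1. Rpl7l1 had 5389, 5392 and 5934 at 16 h and 3972, 4581 and 4477 at 24 h, without overlap (log2 fold change -0.36 ± 0.07 (SE), edgeR adjusted p = 0.00737). The other pair fell by less (edgeR log2 fold change -0.32, adjusted p = 0.0254, and log2 fold change -0.31, adjusted p = 0.0275). Here edgeR lost Rps27l without 16 h replicate 3 (0.118) or 24 h replicate 1 (0.112) or 3 (0.0563), and Rpl22l1 without 16 h replicate 3 (0.11) or 24 h replicate 1 (0.0824) or 3 (0.0947), while the falls of the list were 8 without 16 h replicate 2, 1 without 16 h replicate 3, 1 without 24 h replicate 1 and 1 without 24 h replicate 3. With the length and GC trend removed the median of the list was -0.0038 and only Rpl7l1 of the 3 was called, and with only the 6 DMSO libraries none was (edgeR adjusted p = 0.0563 for Rpl7l1).

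Replication genes leaned the same way, with 9 of 44 called lower, 0 higher and a median log2 fold change of -0.22, and 15 called lower by DESeq2. Tk1, the thymidine kinase, had 2697, 2779 and 3057 normalised counts at 16 h and 2061, 2297 and 2233 at 24 h. Ccne1, cyclin E1, had 436, 456 and 501 and 300.5, 329.5 and 337. Both were lower in every 24 h library (edgeR log2 fold change -0.37 ± 0.08 and -0.53 ± 0.12 SE; adjusted p = 0.0094 and 0.0138), as were Dut, which removes dUTP, Rrm2 of ribonucleotide reductase and the clamp Pcna (edgeR log2 fold change -0.40, -0.44 and -0.35; adjusted p = 0.00938, 0.0189 and 0.0208). The falls of the list were 16 without 16 h replicate 1, 0 without 16 h replicate 3 and 2 without 24 h replicate 1. Without 16 h replicate 3 the edgeR adjusted p of these genes ran from 0.0515 for Tk1 to 0.104 for Pcna. Ccne1, Rrm2 and Pcna were also not called without 24 h replicate 1 (edgeR adjusted p = 0.0626, 0.0859 and 0.0972).

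Among 38 mitosis genes 3 fell and 1 rose (median log2 fold change -0.070). Plk1, the polo-like kinase, had 4977, 4937 and 6084 normalised counts at 16 h and 3492, 4299 and 4213 at 24 h, and Ect2, an exchange factor needed for cytokinesis, 2013, 2683 and 2463 and 2776, 2923 and 3339.8. Plk1 was lower and Ect2 higher in every 24 h library (edgeR log2 fold change -0.41, adjusted p = 0.0128, and log2 fold change 0.34, adjusted p = 0.037). The kinase gene Aurka and Birc5, which encodes survivin, fell too (edgeR log2 fold change -0.29, adjusted p = 0.044, and log2 fold change -0.30, adjusted p = 0.0462). All 4 calls rested on single libraries, and edgeR lost Plk1 without 16 h replicate 3 (0.0632) or 24 h replicate 1 (0.058), Ect2 without 16 h replicate 1 (0.072) or 3 (0.0906) or 24 h replicate 1 (0.0546), 2 (0.0653) or 3 (0.14), Aurka without 16 h replicate 2 (0.085) or 3 (0.157) or 24 h replicate 1 (0.181) or 2 (0.0718), and Birc5 without 16 h replicate 1 (0.0571) or 3 (0.163) or 24 h replicate 1 (0.186) or 3 (0.0947). Without 16 h replicate 1 the list held 6 falls. Of 69 replication-dependent histone genes 14 were tested and none was called (median 0.19, but 0.020 to 0.43 with 1 library left out). Among them Hist1h1c had 1232, 824 and 689 at 16 h and 1192, 904 and 898 at 24 h, overlapping (edgeR adjusted p = 0.673). Hist1h1c was called without 16 h replicate 1 (log2 fold change 0.40, edgeR adjusted p = 0.0464).

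Stem cell markers are given here with the Wnt, Notch and BMP genes that maintain the crypt. Of 13 stem cell markers 1 rose and 1 fell, beside 4.52% and 6.59% of all genes tested. Their median log2 fold change was 0.085 (0.020 to 0.11 with 1 library left out). Lgr5, the R-spondin receptor that marks these cells, had 7269, 10057 and 10309.7 normalised counts at 16 h and 11131, 10255 and 11479 at 24 h, with overlap (edgeR log2 fold change 0.25, adjusted p = 0.195). Sox9, a crypt transcription factor gene, had 2325, 1994 and 2025 and 2723, 2609.8 and 2619, all higher at 24 h (log2 fold change 0.33 ± 0.08 (SE), edgeR adjusted p = 0.0165). Ascl2, the master regulator of the stem cell state, had 1269, 1122 and 1272 and 989, 974 and 1010.0, all lower at 24 h (log2 fold change -0.30 ± 0.07 (SE), edgeR adjusted p = 0.0204). The edgeR fits lost Sox9 without 16 h replicate 3 (0.0767) or 24 h replicate 1 (0.0657), and Ascl2 without 16 h replicate 3 (0.0902) or 24 h replicate 1 (0.0713) or 2 (0.0614). Ascl2 was also the fall among 17 Wnt targets (median 0.037) and Ephb3, an ephrin receptor gene, the rise (edgeR log2 fold change 0.29, adjusted p = 0.032), which was lost without 16 h replicate 2 (0.0529) or 3 (0.14) or 24 h replicate 1 (0.0707), 2 (0.0735) or 3 (0.0931). The Wnt list had 2 rises without 16 h replicate 1 and 2 falls without 16 h replicate 2.

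The Notch list had 1 fall and 0 rises among 11 genes (median log2 fold change 0.055). Hes1, the repressor through which Notch limits secretory fate, had 2961, 2815 and 3267 normalised counts at 16 h and 2393, 2504 and 2506 at 24 h, lower in all 24 h libraries (log2 fold change -0.29 ± 0.07 (SE), edgeR adjusted p = 0.0164). It lost the call without 16 h replicate 3 (0.0812) or 24 h replicate 1 (0.0721), by edgeR, and 1 member rose without 16 h replicate 2. With the length and GC trend removed Hes1 was not called (edgeR adjusted p = 0.074) and the list had 1 rise. Of 9 BMP targets and inhibitors 2 fell and 0 rose (median -0.12). Id2, a direct BMP target, had 1951, 2179 and 2032 and 1612, 1622 and 1489, fully separated (log2 fold change -0.38 ± 0.07 (SE), edgeR adjusted p = 0.00737). The ligand gene Bmp7 fell as well (edgeR log2 fold change -0.31, adjusted p = 0.0311) but not without 16 h replicate 3 (0.149) or 24 h replicate 1 (0.119) or 2 (0.0984).

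Of 33 enterocyte markers 2 were called higher and 2 lower (median log2 fold change 0.090), shares close to those of all genes tested (4.52% and 6.59%). Fabp1, the fatty acid-binding protein of absorptive cells, had 34937, 32193 and 29735 normalised counts at 16 h and 23644, 23674 and 20929 at 24 h. All 24 h libraries were lower, and the call held without any single library (log2 fold change -0.51 ± 0.07 (SE), edgeR adjusted p = 0.00209). Apob, the structural protein of chylomicrons, had 11178, 13011 and 9269 and 18289, 15724 and 17800.4, all higher (log2 fold change 0.63 ± 0.13 (SE), edgeR adjusted p = 0.00984). Prdm1, a repressor that marks the fetal and suckling gut epithelium, rose, and Cps1, which starts the urea cycle, fell (edgeR log2 fold change 0.74, adjusted p = 0.0159, and log2 fold change -0.34, adjusted p = 0.0408). With single libraries left out edgeR lost Apob without 16 h replicate 3 (0.0515), Prdm1 without 16 h replicate 3 (0.0807) or 24 h replicate 1 (0.0763), and Cps1 without 16 h replicate 2 (0.117) or 3 (0.105) or 24 h replicate 1 (0.145), 2 (0.097) or 3 (0.0611). Without 16 h replicate 1 the list held 7 rises. Of 8 villus tip markers 1 rose (median 0.11): Egfr, the epidermal growth factor receptor, with 1186, 1479 and 1308 and 1642, 1555 and 1691, not overlapping (edgeR log2 fold change 0.30, adjusted p = 0.0409), which was lost without 16 h replicate 1 (0.0886) or 3 (0.13) or 24 h replicate 1 (0.115), 2 (0.0598) or 3 (0.117). The fit without 24 h replicate 1 called 1 villus tip gene lower.

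In the list of fatty acid oxidation and PPAR targets 1 of 26 rose and 0 fell (median log2 fold change 0.11). Cpt1a, which brings fatty acids into mitochondria, had 6048, 5647 and 4851 normalised counts at 16 h and 7084, 7149 and 6805 at 24 h, all higher at 24 h (log2 fold change 0.35 ± 0.08 (SE), edgeR adjusted p = 0.0146). Its call was lost by edgeR without 16 h replicate 3 (0.0659) or 24 h replicate 1 (0.0539), and the list held 7 rises without 16 h replicate 1 and 1 fall without 16 h replicate 2. None of 10 ileal and bile acid genes was called by edgeR (median 0.040), while DESeq2 called 1 higher. There was also 1 rise without 16 h replicate 1 or 2 and with the trend removed.

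Enteroendocrine markers rose in 8 of 21 cases and fell in 0, with the highest median log2 fold change of the 41 lists (0.46). Tph1, which starts serotonin synthesis in enterochromaffin cells, had 319, 361 and 316 normalised counts at 16 h and 509, 498 and 536 at 24 h. Pcsk1, the prohormone convertase, had 30.5, 33.2 and 34.9 and 79.5, 63.4 and 63.8. Both were higher in every 24 h library and held without any single library (edgeR log2 fold change 0.63 ± 0.12 and 1.07 ± 0.20 SE; adjusted p = 0.00776 and 0.00656). Chgb, a granule protein and the most abundant member in counts, had 4749, 4549.8 and 4761 and 6262, 6734 and 7119.8, and Gcg, which encodes proglucagon, 26.4, 22.5 and 18.9 and 46.5, 49.7 and 39.1. These also did not overlap (edgeR log2 fold change 0.52, adjusted p = 0.0151, and log2 fold change 0.99, adjusted p = 0.0109), nor did Reg4, a lectin of secretory cells (edgeR log2 fold change 0.51, adjusted p = 0.0146). Calls lost by edgeR were Gcg without 16 h replicate 3 (0.0614), Chgb without 16 h replicate 3 (0.0571) or 24 h replicate 3 (0.0517), and Reg4 without 16 h replicate 3 (0.0751) or 24 h replicate 1 (0.0539). The rises of the list numbered 2 without 16 h replicate 3, 4 without 24 h replicate 1, 5 without 24 h replicate 2 and 4 without 24 h replicate 3, while in summed counts, 12244, 10864 and 11191 at 16 h and 15143, 15370 and 15907 at 24 h, every 24 h library was above every 16 h library.

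Goblet markers gave 3 rises and 0 falls among 15 tested (median log2 fold change 0.055). The goblet gene Bcas1 had 304, 287 and 299.8 normalised counts at 16 h and 441, 425 and 403 at 24 h, and Fer1l6, a ferlin gene, 178, 204 and 142 and 377, 286 and 281. Both rose without overlap and held without any single library (edgeR log2 fold change 0.51 ± 0.09 and 0.85 ± 0.16 SE; adjusted p = 0.00481 and 0.00612). Clca1, a secreted mucus-processing protein, rose too (edgeR log2 fold change 0.46, adjusted p = 0.0373) but not without 16 h replicate 3 (0.161) or 24 h replicate 1 (0.11), 2 (0.0976) or 3 (0.0572). Muc2, the gel-forming mucin, had 4596, 4131 and 3263 and 5603, 4082 and 3976, which overlapped (edgeR log2 fold change 0.19, adjusted p = 0.368). Without 16 h replicate 1 the list held 2 falls and without 24 h replicate 1 it held 1. Paneth markers had 2 rises and 0 falls among 16 (median 0.28): Defa30, an alpha-defensin with 12295, 14495 and 14179.6 and 18797, 16848 and 17096, and Habp2, a serine protease with 321, 576 and 545 and 804, 846 and 722, each without overlap (edgeR log2 fold change 0.36, adjusted p = 0.0287, and log2 fold change 0.72, adjusted p = 0.0417). Both calls rested on single libraries, and edgeR lost Defa30 without 16 h replicate 1 (0.0588) or 3 (0.0745) or 24 h replicate 1 (0.114) or 3 (0.0561), and Habp2 without 16 h replicate 1 (0.0808) or 3 (0.0815) or 24 h replicate 1 (0.112), 2 (0.105) or 3 (0.0642); the list had 1 fall without 16 h replicate 1. Defensin genes are near-identical copies, so the Defa30 level is uncertain. Summed Paneth counts were 71639.5, 99205 and 94173 at 16 h and 108304, 102845 and 101088 at 24 h, all higher at 24 h, with 16 h replicate 1 far below the rest.

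None of 14 tuft cell markers tested was called (median log2 fold change 0.029). Markers of mesenchymal, endothelial, neural and immune cells served to look for other cells in the cultures. Of 21 such genes 8 had 0 counts in all DMSO libraries (among them Col1a2, Col3a1, Dcn, Lum, Acta2, Sox10 and Adgre1), and 6 were expressed enough to be tested. The list rose in 2 of these and fell in 0 (median 0.30, but 0.25 to 0.52 with 1 library left out). With only the 6 DMSO libraries the median was 0.76. Kit, a receptor of mast cells, interstitial cells and also crypt secretory cells and the most abundant member in counts, had 1617, 1716 and 1646 and 3365, 2464 and 2589, all higher at 24 h (log2 fold change 0.76 ± 0.12 (SE), edgeR adjusted p = 0.00341). Pdgfra, a receptor of fibroblasts that lies beside Kit on chromosome 5, had only 13.2, 9.76 and 5.98 and 27.1, 28.3 and 23.8 (log2 fold change 1.44 ± 0.31 (SE), edgeR adjusted p = 0.0124), and lost its call without 16 h replicate 3 (0.0679) and in DESeq2, which gave it no adjusted p. Summed counts of the list, 1679.9, 1773 and 1696 at 16 h and 3453, 2546 and 2654 at 24 h, were nearly all Kit. Col1a1, a fibroblast collagen picked after its values were seen, had 17.3, 9.76 and 9.96 and 7.75, 12.7 and 7.62, which overlapped (edgeR log2 fold change -0.39, adjusted p = 0.661). The part of other cells in the results was not tested.

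Clock genes were listed because the time points may fall at different phases of a daily rhythm. Of 17 tested, 1 rose and 3 fell, with a median log2 fold change of 0.10. Ciart, a repressor of the CLOCK-BMAL1 complex, had 210.4, 268 and 269 normalised counts at 16 h and 116, 129 and 142 at 24 h, fully apart (log2 fold change -0.95 ± 0.13 (SE), edgeR adjusted p = 0.00187), and it held without any single library. Dbp, an output gene of that complex, had 842, 699.9 and 738 and 625, 518 and 548, all lower at 24 h (log2 fold change -0.43 ± 0.10 (SE), edgeR adjusted p = 0.0147). Bhlhe40, a repressor that also answers to hypoxia, had 9601, 8778 and 9993 and 8023, 7234 and 7607, all lower as well (log2 fold change -0.31 ± 0.07 (SE), edgeR adjusted p = 0.0147). Refits by edgeR lost Dbp without 24 h replicate 2 (0.054), and Bhlhe40 without 16 h replicate 3 (0.0731) or 24 h replicate 2 (0.0543).

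A further 13 clock genes were not called and overlapped between the times. Arntl, which encodes BMAL1, had 461, 502 and 561 normalised counts at 16 h and 505, 623 and 593 at 24 h (edgeR log2 fold change 0.17, adjusted p = 0.318). Its partners Clock and Npas2 had edgeR log2 fold changes of 0.27 and 0.13 (adjusted p = 0.117 and 0.444), and Clock was called without 16 h replicate 2 (0.39, adjusted p = 0.0273). The repressors Per1, Per2 and Per3 were at -0.16, -0.010 and 0.14 (edgeR adjusted p = 0.331, 0.957 and 0.593), and Cry1 and Cry2 at -0.044 and 0.18 (edgeR adjusted p = 0.757 and 0.305). Nr1d1, the repressor REV-ERB-alpha, had 2043, 1500.3 and 1602 and 1521, 1297 and 1253, with 24 h replicate 1 inside the 16 h range (edgeR log2 fold change -0.34, adjusted p = 0.104), and it was called lower with no filter on low counts (adjusted p = 0.0196). Nr1d2, Tef and Nfil3 were at 0.12, 0.031 and 0.10 (edgeR adjusted p = 0.465, 0.869 and 0.597), and Hlf, with at most 10.7 normalised counts in any DMSO library, at 0.59 (adjusted p = 0.49).

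Of 21 EGF receptor family genes, ligands and ERK feedback genes 3 rose and 1 fell (median log2 fold change 0.15). Erbb3, the kinase-poor partner receptor, had 13999, 10191 and 7126 normalised counts at 16 h and 20112, 16124 and 15634 at 24 h, with 16 h replicate 1 closest to the 24 h libraries but below them (log2 fold change 0.73 ± 0.18 (SE), edgeR adjusted p = 0.0194). Errfi1, a feedback inhibitor of the receptor, had 2033, 1931 and 2112 and 2304, 2324 and 2463, all higher, and Phlda1, an ERK-induced gene, 2933, 3113 and 3512 and 2373, 2571 and 2691, all lower (edgeR log2 fold change 0.22, adjusted p = 0.0318, and log2 fold change -0.32, adjusted p = 0.0403). Single libraries left out made edgeR lose Erbb3 without 16 h replicate 3 (0.0607) or 24 h replicate 1 (0.0861), Errfi1 without 16 h replicate 2 (0.0666) or 3 (0.0603) or 24 h replicate 1 (0.0696), 2 (0.061) or 3 (0.112), and Phlda1 without 16 h replicate 2 (0.054) or 3 (0.173) or 24 h replicate 1 (0.152), 2 (0.0852) or 3 (0.0592). Egfr, given above with the villus tip markers, was the remaining rise, and the rises numbered 6 without 16 h replicate 1, 0 without 16 h replicate 3, 0 without 24 h replicate 1, 1 without 24 h replicate 2 and 1 without 24 h replicate 3. Among 20 immediate early genes 2 rose (median 0.018), the Krüppel-like factor gene Klf6 and the antiproliferative Btg2 (edgeR log2 fold change 0.31, adjusted p = 0.0266, and log2 fold change 0.26, adjusted p = 0.0493). Their edgeR calls were lost, Klf6 without 16 h replicate 2 (0.0622) or 3 (0.0774) or 24 h replicate 1 (0.0825) or 3 (0.0836), and Btg2 without 16 h replicate 2 (0.0951) or 3 (0.19) or 24 h replicate 1 (0.184), 2 (0.0516) or 3 (0.105), and the list held 4 rises without 16 h replicate 1 and 1 fall without 16 h replicate 2.

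YAP targets and genes of the regenerating epithelium rose in 4 of 14 cases and fell in 0, with a median log2 fold change of 0.43. Clu, which marks revival stem cells, had 3084, 2619 and 3095 normalised counts at 16 h and 4806, 3786 and 3844 at 24 h. Amotl2, a target and partner of YAP, had 533, 454 and 448 and 724, 599.6 and 661. Every 24 h library was higher in both (edgeR log2 fold change 0.50 ± 0.11 and 0.47 ± 0.10 SE; adjusted p = 0.0124 and 0.0106), and likewise in Ajuba, a LIM protein, and Anxa1, an annexin (edgeR log2 fold change 0.45, adjusted p = 0.0354, and log2 fold change 0.52, adjusted p = 0.0373). None held in every fit, as edgeR lost Clu without 24 h replicate 1 (0.0586), Amotl2 without 16 h replicate 3 (0.0566) or 24 h replicate 1 (0.0529), Ajuba without 16 h replicate 2 (0.0984) or 3 (0.147) or 24 h replicate 1 (0.154), and Anxa1 without 16 h replicate 2 (0.103) or 3 (0.0529) or 24 h replicate 1 (0.145), 2 (0.0566) or 3 (0.0635).

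Inflammatory genes gave 2 rises and 0 falls among 20 (median log2 fold change 0.19). Nos2, the inducible nitric oxide synthase, had 132, 102 and 91.6 normalised counts at 16 h and 215, 177 and 153 at 24 h, and Nfkbiz, a nuclear inhibitor of NF-kB, 725, 746 and 645 and 903, 892 and 898, both higher in all 24 h libraries (edgeR log2 fold change 0.74, adjusted p = 0.0182, and log2 fold change 0.35, adjusted p = 0.0389). Neither held in every fit, as edgeR lost Nos2 without 16 h replicate 3 (0.0901) or 24 h replicate 1 (0.0847), and Nfkbiz without 16 h replicate 3 (0.161) or 24 h replicate 1 (0.11), 2 (0.0822) or 3 (0.0881), and the list held 5 rises without 16 h replicate 1 and 1 fall without 16 h replicate 2. No interferon-stimulated gene of 29 tested was called (median 0.20, but 0.00029 to 0.46 with 1 library left out), and their libraries were widely spread. Irf7, a factor that drives the response, had 6199, 6565 and 9189 and 4912, 10597 and 9264. Its lowest value was 24 h replicate 1 and its highest 24 h replicate 2, so the times overlapped (edgeR adjusted p = 0.817). Of 11 antimicrobial and regenerating protein genes 1 rose and 2 fell (median -0.10). Nlrp6, an inflammasome sensor of the epithelium, had 11914, 11668 and 12206 and 9304, 9239.9 and 9268, fully apart, and held without any single library (log2 fold change -0.36 ± 0.07 (SE), edgeR adjusted p = 0.00878). Sprr2a3, a small proline-rich protein gene with near-identical copies and so of uncertain level, fell and the ribonuclease gene Ang rose (edgeR log2 fold change -0.61, adjusted p = 0.0197, and log2 fold change 0.52, adjusted p = 0.0173). Their edgeR calls were lost, Sprr2a3 without 16 h replicate 3 (0.085) or 24 h replicate 1 (0.0625) or 2 (0.0621), and Ang without 16 h replicate 3 (0.0791) or 24 h replicate 1 (0.062).

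Targets of p53 divided, with 2 of 22 higher and 4 lower (median log2 fold change -0.061). Trp53inp1, a stress-induced nuclear protein, had 506, 493 and 505 normalised counts at 16 h and 835, 626 and 778 at 24 h, all higher at 24 h and held without any single library (log2 fold change 0.57 ± 0.10 (SE), edgeR adjusted p = 0.00528). Pmaip1, which encodes the death factor NOXA, rose as well, and the death effector Bax, the reductase gene Dcxr and the nuclease gene Aen fell (edgeR log2 fold change 0.31, -0.32, -0.35 and -0.31; adjusted p = 0.0201, 0.0179, 0.0257 and 0.0359). The libraries of Aen overlapped, with 1268, 1656 and 1532 and 1132, 1184 and 1284. These 4 were lost by edgeR, Pmaip1 without 24 h replicate 1 (0.0809) or 3 (0.0728), Bax without 16 h replicate 3 (0.0848) or 24 h replicate 1 (0.0786) or 3 (0.0562), Dcxr without 16 h replicate 3 (0.099) or 24 h replicate 2 (0.0721) or 3 (0.0849), and Aen without 16 h replicate 2 (0.104) or 3 (0.129) or 24 h replicate 1 (0.139) or 2 (0.0942). The falls numbered 0 without 16 h replicate 3, 2 without 24 h replicate 1, 1 without 24 h replicate 2 and 1 without 24 h replicate 3. No lysosome or autophagy gene of 20 tested was called by edgeR (median 0.032), while DESeq2 called 2 higher. Without 16 h replicate 1 that list held 4 rises and without 16 h replicate 2 it held 1.

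The list of Cftr and fluid secretion had 1 rise and 1 fall among 20 (median log2 fold change 0.11). Kcne3, a subunit of the basolateral potassium channel, had 652, 674 and 780.0 normalised counts at 16 h and 465, 438 and 459 at 24 h, and Ano1, a calcium-activated chloride channel, 763, 675 and 735 and 1175, 1004 and 1062. Kcne3 was lower and Ano1 higher in every 24 h library, and both held without any single library (edgeR log2 fold change -0.63 ± 0.10 and 0.58 ± 0.11 SE; adjusted p = 0.00397 and 0.00769). Cftr, the chloride channel, had 2676, 3585 and 3064 and 3496, 3555 and 3851, which overlapped (edgeR log2 fold change 0.23, adjusted p = 0.135), and it was called higher without 16 h replicate 2 (0.34, adjusted p = 0.0247). The list held 3 rises without 16 h replicate 1 and 3 without 16 h replicate 2. Among 15 metal handling genes 1 rose and 2 fell (median -0.18): Heph, an iron oxidase, rose, and the ferritin light chain Ftl1 and the transferrin receptor Tfrc fell (edgeR log2 fold change 0.29, -0.37 and -0.36; adjusted p = 0.0189, 0.0113 and 0.0416). Tfrc overlapped, with 7021, 9270.5 and 9565 and 6959, 5943 and 7193, and the other pair did not. All 3 were lost by edgeR, Heph without 16 h replicate 3 (0.0899) or 24 h replicate 1 (0.0825), Ftl1 without 16 h replicate 3 (0.0598) or 24 h replicate 1 (0.0558), and Tfrc without 16 h replicate 2 (0.103) or 3 (0.177) or 24 h replicate 1 (0.0911), 2 (0.141) or 3 (0.056), while 5 falls were called without 16 h replicate 1 and 2 rises without 16 h replicate 2.

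The Mediator kinase module, the target of the study, had 2 rises and 0 falls among 6 genes tested (median log2 fold change 0.29). Cdk19 had 1146, 1218 and 1126 normalised counts at 16 h and 1562, 1360.0 and 1484 at 24 h, and Med13l, a linker subunit, 1394, 1643 and 1287 and 1977, 1816 and 1803, both higher in all 24 h libraries (log2 fold change 0.34 ± 0.08 (SE), edgeR adjusted p = 0.0216; log2 fold change 0.37 ± 0.09 (SE), edgeR adjusted p = 0.0193). In refits edgeR lost Cdk19 without 16 h replicate 3 (0.0902) or 24 h replicate 1 (0.0928) or 3 (0.0595), and Med13l without 16 h replicate 3 (0.0957) or 24 h replicate 1 (0.0822). Cdk8 had 1595, 1902 and 2102 and 1714, 1826 and 1919, with overlap (edgeR log2 fold change -0.036, adjusted p = 0.839). Of 8 abundant non-coding RNAs 4 were tested and none was called (median 0.36).

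**Figure D3:**
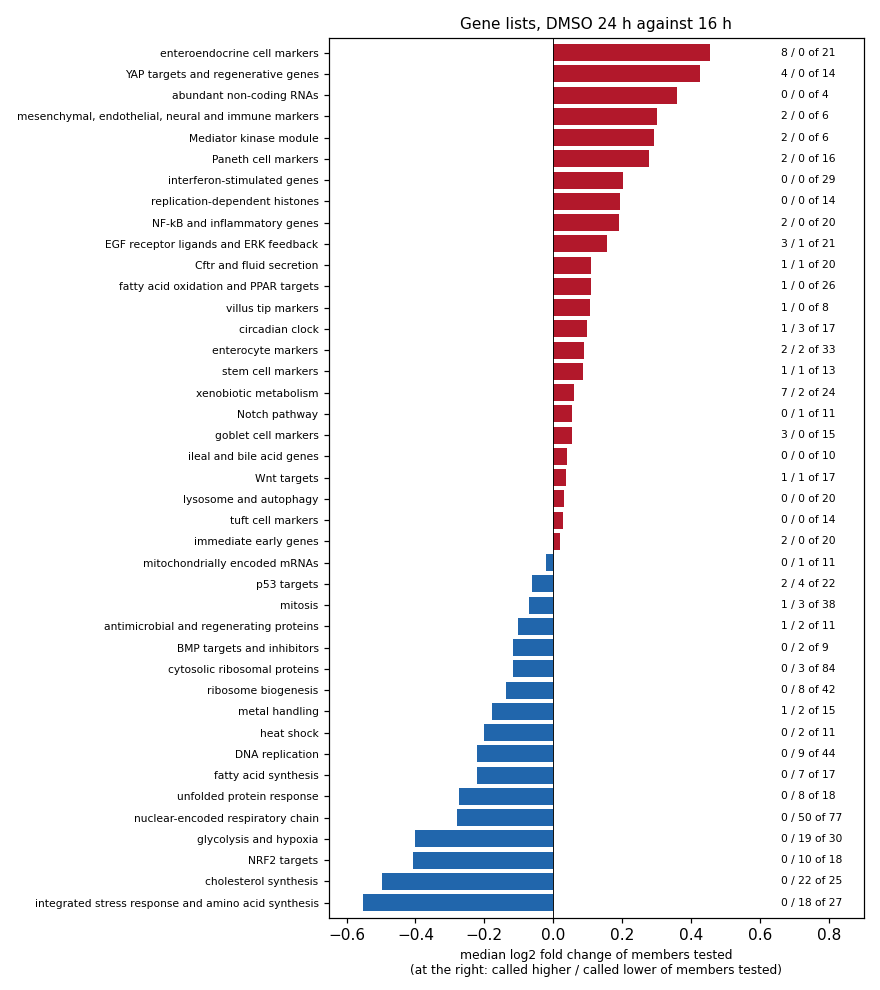
Median log2 fold change from 16 h to 24 h in DMSO (horizontal axis) of the tested members of each of 41 gene lists, with the members called higher, called lower and tested at the right. The lowest median is that of the integrated stress response and amino acid synthesis (-0.55) and the highest that of the enteroendocrine markers (0.46).

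Rises and falls differed in gene length and base composition. The median exonic length was 6012 bases for genes that rose, 2860.5 for genes that fell and 3780.5 for all genes tested, and the median GC content of the longest transcript 47.8%, 51.9% and 49.8%. In 4 equal groups from the shortest to the longest genes the median log2 fold change was -0.10, -0.046, 0.013 and 0.090, with 59 rises and 325 falls in the first group and 339 and 107 in the last. The last group held 25.9%, 28.4% and 26.2% of counts at 16 h and 28.9%, 28.4% and 29.1% at 24 h, where 16 h replicate 2 lay just above 24 h replicate 2 (exact permutation test, two-sided, p = 0.2). With a smooth trend with length and GC removed from each library, a setting chosen after seeing the data, 1747 genes were called, 859 higher and 888 lower, and 1157 (67.3%) of the 1719 calls were kept. The order of lengths was then turned round, with medians of 4116 bases for rises and 4903.5 for falls. In that setting the falls were 23 in cholesterol synthesis, 17 in glycolysis and hypoxia, 16 in the integrated stress response and amino acid synthesis and 9 among NRF2 targets, and the rises 10 among enteroendocrine and 7 among Paneth markers. Of the named genes edgeR then lost Ascl2, Egfr, Plk1, Aurka, Birc5, Hes1, Bmp7, Phlda1, Bax, Dcxr, Srm, Ftl1, Rps27l, Rpl22l1 and mt-Nd6 (adjusted p from 0.0618 to 0.217), and the falls were 5 in ribosome biogenesis, 1 among BMP genes and 2 among p53 targets. The rises were 5 among EGF receptor, 4 among immediate early, 4 among inflammatory, 3 among lysosome and 2 among fatty acid oxidation genes. The medians were then 0.046 for antimicrobial, 0.00039 for BMP genes and 0.11 for mitochondrial mRNAs, against negative values before. The part of length and GC in the results was not tested.

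With only the 6 DMSO libraries the falls were 14 in cholesterol synthesis, 4 in fatty acid synthesis, 11 in the integrated stress response and amino acid synthesis, 4 in the unfolded protein response, 5 among NRF2 targets, 3 in ribosome biogenesis, 2 in DNA replication and 11 in the respiratory chain, and the rises 4 among enteroendocrine markers and 1 among YAP targets. In that fit 56 named genes lost their call, with edgeR adjusted p up to 0.136. They include Cyp2c37, Tm4sf1, Sox9, Ascl2, Prdm1, Cps1, Egfr, Defa30, Habp2, Gcg, Dbp, Bhlhe40, Dut, Rrm2, Pcna, Plk1, Ect2, Aurka, Birc5, Ephb3, Hes1, Bmp7, Erbb3, Errfi1, Phlda1, Klf6, Btg2, Elovl5, Fasn, Cpt1a, Pdia6, Hsph1, Hspe1, Bax, Pmaip1, Dcxr, Aen, Nos2, Nfkbiz, Ang, Amotl2, Ajuba, Anxa1, Fbl, Srm, Ftl1, Heph, Tfrc, Med13l, Cdk19, Rpl7l1, Rps27l, Rpl22l1, mt-Nd6 and Hmgn1. With no filter edgeR lost Errfi1 and Btg2, in the unstranded counts Habp2, Btg2 and mt-Nd6, and with other size factors Birc5. With 1 library left out, medians on both sides of 0 were found for the enterocyte, villus tip, tuft, clock, mitosis, Wnt, immediate early, lysosome, ileal and mitochondrial mRNA lists. DESeq2 gave more calls in several lists: 12 falls in the unfolded protein response, 5 in mitosis and 4 in metal handling, 6 rises among YAP targets, 4 among inflammatory genes and 3 in the Mediator kinase module, 4 rises and 1 fall among Paneth markers, 4 and 2 among EGF receptor genes, 3 and 1 among immediate early genes, and 1 fall among goblet markers.

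The Senexin B libraries gave the same interval in organoids that share no library with the DMSO comparison. Both contrasts used the spread estimated from all 12 libraries, so the calls of the 2 agents are not independent of each other. There 690 genes (4.46%) were called, 319 higher and 371 lower. That number was 261 without Senexin B 16 h replicate 2, 298 without 16 h replicate 3, 224 without 24 h replicate 2 and 228 without 24 h replicate 3 of that agent. Of the 1719 genes called in DMSO 1487 (86.5%) had the same sign under Senexin B, against 62.6% of all genes tested, and 314 were called the same way in both, 18.3% of the DMSO calls and 45.5% of the Senexin B calls. Across the genes tested, which are not independent of each other, the fold changes of both agents had a Pearson correlation of 0.38 and a Spearman correlation of 0.36. The median log2 fold change under Senexin B was -0.40 for cholesterol synthesis and -0.55 for glycolysis and hypoxia, with 16 and 24 falls, and -0.21 for the integrated stress response and amino acid synthesis and -0.11 for the respiratory chain, with 4 and 5. The lists whose medians had opposite signs and exceeded 0.1 in size under both agents were villus tip (0.11 and -0.28), Paneth (0.28 and -0.11), DNA replication (-0.22 and 0.11), interferon-stimulated (0.20 and -0.32) and ribosomal protein genes (-0.12 and 0.14), with DMSO given first; the DMSO medians of the villus tip and interferon lists came down to about 0 with 1 library left out. The difference between the time effects of the agents was tested for every gene, and edgeR called 0 (0%) at an adjusted p under 0.05, with 1995 genes at an unadjusted p under 0.05, a lowest adjusted p of 0.22 and 73 calls by DESeq2. With single libraries left out edgeR called 26 without Senexin B 24 h replicate 1, 7 without DMSO 16 h replicate 1 and 1 without DMSO 16 h replicate 2.

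The 3 genes with the lowest p in that test were Hmgn1, Pnliprp2 and Itprid2, and DESeq2 called all of them (adjusted p = 3.42e-04, 4.28e-04 and 4.28e-04), as well as mt-Nd6 and Cyp2c65 (6.83e-04 and 0.00318). Hmgn1, a nucleosome-binding protein, had 5753, 5887 and 6052 normalised counts at 16 h and 4697, 4998 and 4994 at 24 h in DMSO, and 5512, 5266 and 5087 and 5916, 6399 and 6194 under Senexin B. It was lower in all 24 h libraries of DMSO (log2 fold change -0.27 ± 0.06 (SE), edgeR adjusted p = 0.0135) and had a log2 fold change of 0.22 under Senexin B (edgeR difference 0.49, unadjusted p = 3.81e-05, adjusted p = 0.22). By edgeR its DMSO call was lost without 16 h replicate 3 (0.0614) or 24 h replicate 1 (0.0658). Pnliprp2 had 2415, 2879 and 2429.7 and 2537, 2782 and 2711 under Senexin B, which overlapped, beside its rise in DMSO (edgeR difference -0.69, unadjusted p = 5.65e-05, adjusted p = 0.22). Itprid2, an actin- and receptor-binding protein gene, had 3135, 2970.4 and 2613 and 4175, 3886 and 3876 in DMSO, all higher at 24 h (log2 fold change 0.45 ± 0.08 (SE), edgeR adjusted p = 0.00485), and 2981, 3318 and 3497 and 3019.7, 2765 and 2892 under Senexin B (edgeR difference -0.63, unadjusted p = 6.12e-05, adjusted p = 0.22). Hmgn1 is also among the 3 genes called in opposite directions by the separate contrasts, with mt-Nd6, whose DMSO call was lost in the unstranded counts, and Gm3699, which was picked after its values were seen. Their log2 fold changes under Senexin B were 0.22, 0.63 and 0.46 (edgeR adjusted p = 0.0474, 0.0345 and 0.0369), against -0.27, -0.56 and -0.39 in DMSO.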

How the data were processed

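RNA from 24 organoid libraries was sequenced as single reads by the authors, and 12 of them, from DMSO or Senexin B at 16 h and 24 h, were read here; the 12 knockout and wild-type libraries were not used. The deposited values are counts per gene that the authors made with STAR 2.6.0c on GRCm38.p6, per the labels, after FastQC; the second-strand column was used. The labels speak of rRNA-depleted RNA and the extract protocol of oligo(dT) purification, and this was not settled. Unmapped, multimapping, unassigned and ambiguous reads, left out of library sizes, were 2.16% to 2.72%, 7.25% to 8.04%, 10.2% to 12.8% and 1.63% to 1.75% of reads in the DMSO libraries. GENCODE vM21 held 54079 of the 54146 gene ids and lacked 67; 25733 had 0 counts in all 12 libraries, and 15467 passed filterByExpr.

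All 12 libraries entered 1 edgeR 4.0.16 quasi-likelihood model (R 4.3.3) with TMM scaling and 1 mean per agent and time; contrasts were adjusted by Benjamini-Hochberg over all genes tested, with calls under 0.05. DESeq2 1.42.0 was the second tool, and limma 3.58.1, Python 3.11.15 and matplotlib 3.10.9 were also used. The pipeline was tested on simulated data, where edgeR recovered 185 and DESeq2 182 of 200 changed genes. Normalised counts are counts divided by the effective library size, times its mean over the 12 libraries. The named genes were the 8 largest rises and falls and the 8 of each with the lowest p (called, mean of at least 50 normalised counts, no overlap, regular symbol, no pseudogene), up to 5 called members of each list by p or else its 2 most abundant, all clock genes, the 3 lowest p of the difference test, and genes the study names; not all of these are reported here. The members and the 41 lists were chosen with earlier results of these data known. Alternatives were other size factors, DESeq2, no filter, at least 10 counts in every library, the unstranded column, a replicate block, the 6 DMSO libraries alone with and without that block, each library left out, and, chosen after seeing the data, removal of the trend with length and GC. Promoter motifs came from RefSeq sequences.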

Additional observations from a re-analysis of the deposited data

How the results depend on the processing

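No named gene called in DMSO changed direction in any fit, and the number of calls in DMSO stayed within 1.5 times of 1719 with other size factors (1698), DESeq2 (2283), no filter (1862), a minimum of 10 counts (1799), the unstranded column (1825) and the length and GC trend removed (1747), the last chosen after seeing the data. Of the 1719 calls 1653, 1657, 1438, 1658, 1594 and 1157 were kept in these fits. In the unstranded column 5 of the 1719 had a fold change of the other sign. With only the 6 DMSO libraries there were 385 calls (168 higher and 217 lower), 380 of them among the 1719; this fit has fewer samples to estimate the spread. Of the named genes 56 lost their call there and 15 with the trend removed. Leaving out 1 library gave 434 to 2296 calls in DMSO, 184 to 1101 higher and 250 to 1195 lower, 224 to 828 under Senexin B, and 0 to 26 for the difference of the time effects; such fits leave 2 libraries in a group, and the cause of the spread between libraries was not tested. Under Senexin B the trend removed gave 1036 calls, and for the difference DESeq2 gave 73 and no filter 121; the cause was not tested.

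A replicate block raised the calls to 3281 in DMSO (1469 higher and 1812 lower), to 1420 under Senexin B and to 60 for the difference, and with the 6 DMSO libraries alone to 2294 (1100 higher and 1194 lower); the cause was not tested. With it Nr1d1 was called in both fits (edgeR adjusted p = 0.0156 and 0.0119) and Clock in the first (0.0253), and no named gene lost its call. Lists with more calls included DNA replication (24 falls), mitosis (10 falls), Paneth (6 rises, 1 fall), enterocyte (8 rises, 4 falls), lysosome (2 rises) and interferon-stimulated genes (2 rises, 1 fall). The sources do not say that libraries of the same number belong together. Deviations of the DMSO libraries from their group means had r = 0.351, -0.044 and 0.267 between libraries of the same number. Replicate 2 of each time correlated better with another number, so the numbers were not taken as pairs in the main fit. In summed normalised counts of the interferon-stimulated genes, a list picked here after its values were seen, replicate 1 was the lowest of its group throughout. It held 39381 and 33151 in DMSO and 22379 and 19432 under Senexin B, with 16 h given first. Libraries of the same number may thus share something, which was not tested.

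Depth limits genes of low count, and 3 libraries per time limit the smallest change that can be called. The labels record no changes of medium and no hour of the day, and DMSO was present at both times, so its own effect cannot be told apart.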

Other observations

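A further 4 gene families were looked at after their values were seen, and their counts describe the data without a test of the family. These counts come from the main fit. How many of the calls hold with single libraries left out, with only the 6 DMSO libraries or with the length and GC trend removed is not given here. Of 17 cytosolic aminoacyl-tRNA synthetase genes, whose products load amino acids onto tRNA, 6 were called lower and 0 higher (median log2 fold change -0.31, against 0.00078 over all genes). The alanine, cysteine, methionine and tyrosine enzymes had the lowest values, with edgeR log2 fold changes of -0.75 for Aars, -0.78 for Cars, -0.67 for Mars and -0.74 for Yars (adjusted p = 0.0103, 0.00488, 0.00976 and 0.0025). Proteasome subunit genes were called lower in 19 of 37 cases and higher in 0, by small amounts (median -0.25). Glutathione transferase genes of the Gsta and Gstm families were called lower in 7 of 11 cases (median -0.41), led by Gstm3 with 8849, 9976 and 13762 normalised counts at 16 h and 5789, 6269 and 6519 at 24 h (edgeR log2 fold change -0.81, adjusted p = 0.00906). In the Cyp2c family 8 of 11 tested were called higher and 0 lower (median 0.68). Under Senexin B the medians of the 4 families, in this order, were -0.087, -0.039, -0.20 and 0.47. Members of the last 2 families share reads with near copies, so their levels are uncertain.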
